A study of Homo sapiens with 6 samples.

Results

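The 4 human HOX gene clusters were examined for H3K27ac, an acetylated form of histone H3 found at active promoters and enhancers, in THP-1 cells and in M2 macrophages. Each cluster was taken as a fixed hg19 window. HOXA was chromosome 7 at 27100000 to 27270000, and HOXB was chromosome 17 at 46600000 to 46830000. HOXC was chromosome 12 at 54320000 to 54460000, and HOXD was chromosome 2 at 176930000 to 177070000. Every deposited peak that overlapped a window was a member. The windows held 28 of the 56420 M2 peaks and 19 of the 31444 THP-1 peaks. Together the windows span 680 kb, and 38 HOX genes were listed for them: 10 of HOXA, 10 of HOXB, 9 of HOXC and 9 of HOXD.

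The study made chromatin immunoprecipitation libraries for YY1, for H3K27ac and for input DNA in each cell type, 6 libraries in all, and the values below come from the 2 H3K27ac peak lists. THP-1 is a human monocytic leukaemia line that carries a fusion of the genes KMT2A and MLLT3, and the other libraries are labelled as M2 macrophages, a name for alternatively activated macrophages. The sources used here do not give the cells or agents from which these macrophages came. The same RPMI medium with serum is given for all libraries. Each H3K27ac list stands for 1 library, so differences between the cell types lack a replicate check and are given without a test or p-value. Neither cell type could be checked against marker genes without an hg19 gene annotation.

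HOX genes encode homeodomain transcription factors that set position along the body axis in the embryo. They lie in 4 clusters in which the order of the genes on the chromosome follows their order of use along the axis, with low numbers used anteriorly and early and high numbers posteriorly and late. Blood stem and progenitor cells express several of them, mainly of the HOXA and HOXB clusters, and the level falls as myeloid cells mature. Leukaemias with KMT2A fusions are known for sustained expression of HOXA genes such as HOXA9 and HOXA10, which together with the cofactor MEIS1 drive self-renewal.

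Gene order was taken from RefSeq (GRCh38.p14), in which 38 of 38 member symbols were found, and it was used for order only. In HOXA and HOXB the lowest-numbered gene comes first on the chromosome, and in HOXC and HOXD the highest-numbered one does. From here on each window is read from the end of the lowest-numbered member (HOXA2, HOXB1, HOXC4 or HOXD1) to the end of the gene numbered 13. Because gene positions of another build were not set against the hg19 peaks, no peak was assigned to a gene.

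The sequence at the starts of HOX genes is shown for members at opposite ends of HOXA, the cluster with most of the peaks. These are the 250 bases before the start of HOXA2, of HOXA9 and of HOXA13, from RefSeq on GRCh38.p14, on the minus strand, 5′ to 3′, with each CpG dinucleotide in capitals. HOXA2 acts in hindbrain and neural crest patterning, HOXA9 in blood progenitors, and HOXA13 in limb and hindgut.
HOXA2 promoter: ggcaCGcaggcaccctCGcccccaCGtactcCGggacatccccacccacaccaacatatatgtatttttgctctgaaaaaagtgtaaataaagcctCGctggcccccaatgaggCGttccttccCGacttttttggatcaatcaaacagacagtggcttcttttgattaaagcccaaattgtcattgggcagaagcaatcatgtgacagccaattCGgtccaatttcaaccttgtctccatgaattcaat
HOXA9 promoter: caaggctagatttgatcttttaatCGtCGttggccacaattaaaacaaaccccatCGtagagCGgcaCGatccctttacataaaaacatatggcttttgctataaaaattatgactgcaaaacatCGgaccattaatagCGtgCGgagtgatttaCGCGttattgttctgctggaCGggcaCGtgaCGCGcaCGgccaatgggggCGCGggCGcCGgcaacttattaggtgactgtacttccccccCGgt
HOXA13 promoter: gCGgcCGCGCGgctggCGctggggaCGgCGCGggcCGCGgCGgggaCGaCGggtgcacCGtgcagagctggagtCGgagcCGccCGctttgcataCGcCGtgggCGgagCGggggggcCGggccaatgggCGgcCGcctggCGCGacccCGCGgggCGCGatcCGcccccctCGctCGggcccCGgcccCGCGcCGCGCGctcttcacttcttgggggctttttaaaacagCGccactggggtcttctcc
The stretch before HOXA2 (chr7:27102684-27102933) held 8 CpG, that before HOXA9 (chr7:27165538-27165787) held 20, and that before HOXA13 (chr7:27200092-27200341) held 40. Promoter entries were matched for 20 of the 38 members, with 27 entries between them. The median was 19 CpG against 11 for all 35097 promoters listed. The match was uneven, with 9 of 10 members in HOXA, 8 of 9 in HOXD, 2 of 9 in HOXC and 1 of 10 in HOXB, so these values describe mostly HOXA and HOXD. The range over the HOX entries was 0 to 40, the lowest at a start of HOXA3, a gene with 7 listed starts, and the highest at HOXA13. The core motif of YY1, the factor the study is about (CCATNTT, searched on both strands), was present in 6 of the 27 HOX stretches (22.22%) and in 11.6% of all stretches. HOXC4 and HOXC5 share a listed start that holds the motif. This sequence was therefore counted 2 times, both among the 27 and among the 6. A motif match describes the letters only.

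The clusters also hold microRNA genes. In RefSeq order MIR196B lies between HOXA9 and HOXA10, MIR196A1 between HOXB9 and HOXB13, MIR196A2 between HOXC10 and HOXC9, and MIR10A between HOXB4 and HOXB5. The mature forms below show which of these copies share a seed, the bases in capitals that pair with targets.
hsa-miR-196b-5p: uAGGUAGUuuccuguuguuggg
hsa-miR-196a-5p: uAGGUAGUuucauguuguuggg
hsa-miR-10a-5p: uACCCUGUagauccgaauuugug
The miR-196 forms of HOXA, HOXB and HOXC have the same seed, and miR-196b-5p differs from miR-196a-5p by 1 of 22 bases, C12A, counted from the 5′ end. The miR-196 family is known to repress HOX mRNAs. Small RNA was not measured.

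Most H3K27ac peaks in the HOX windows lay in HOXA, in both cell types. In the M2 list 22 of the 28 peaks were in HOXA, 4 in HOXB, 1 in HOXC and 1 in HOXD. In the THP-1 list 14 of the 19 peaks were in HOXA, 3 in HOXB, 1 in HOXC and 1 in HOXD. The larger M2 count did not hold when the M2 list was held to the length of the THP-1 list by highest -log10 q, which left 12 M2 peaks in HOXA beside 14 THP-1 peaks. With peaks up to 1000 bp apart joined, HOXA had 11 M2 and 10 THP-1 peaks. Peaks covered 28.5 kb of the 170 kb HOXA window in M2 (16.7%) and 19.5 kb in THP-1 (11.4%). In HOXB the covered length was 1.95 kb (M2) and 1.44 kb (THP-1), which is 0.849% and 0.625% of the window. The M2 peak of HOXC covered 0.444 kb and the THP-1 peak 0.394 kb. In HOXD the M2 peak covered 0.307 kb and the THP-1 peak 0.911 kb.

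For comparison, consecutive tiles of the length of each window were laid along all chromosomes, unmappable stretches included. Of 17827 tiles of 170 kb, 0.634% held as much M2 peak sequence as HOXA and 0.376% held as much THP-1 peak sequence. The mean tile of each of these lengths was covered over 2.02% in M2 and 0.921% in THP-1, and the other clusters were below these means in both lists. Tiles are unevenly covered, so many held less than the mean. In the M2 list, 48.2% of tiles held as much as HOXB, 53.1% as much as HOXC and 56.6% as much as HOXD. In the THP-1 list the shares were 35.9%, 42.1% and 32.2%.

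**Figure D1:**
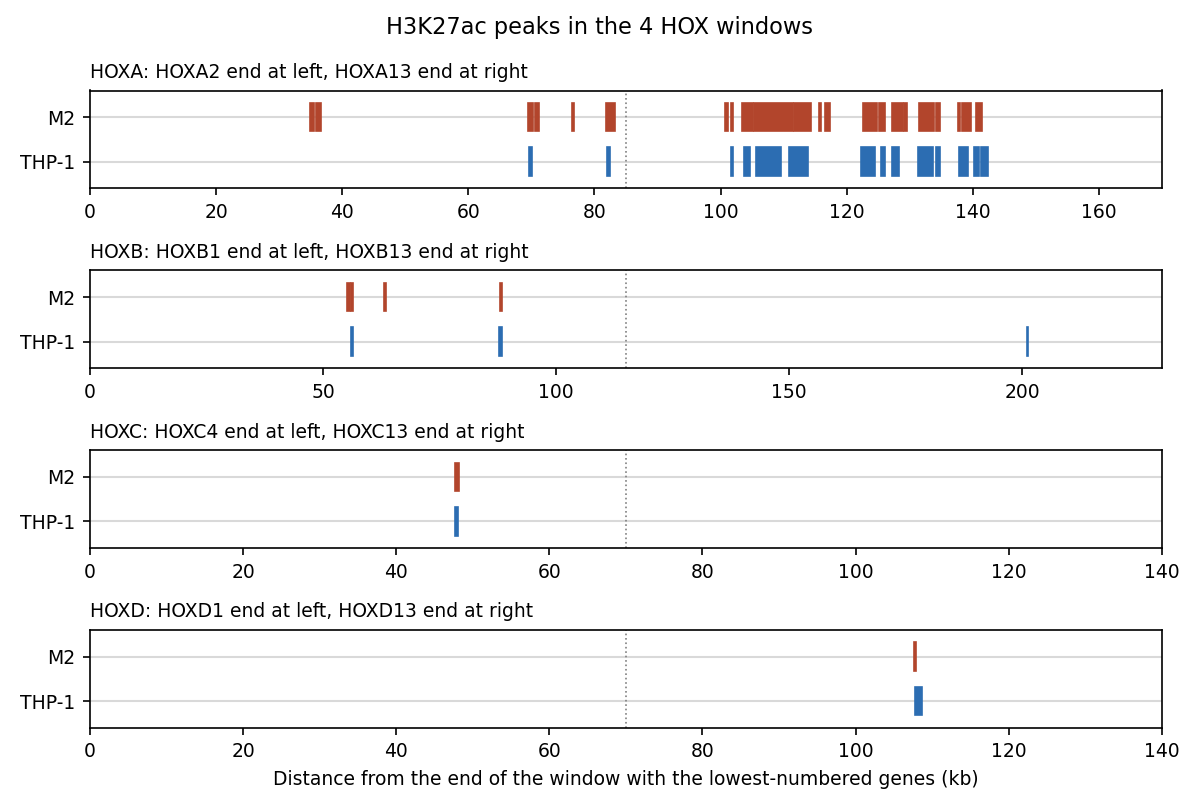
Positions of H3K27ac peaks in the HOXA, HOXB, HOXC and HOXD windows, in kb from the end of the lowest-numbered genes, with M2 peaks in the upper and THP-1 peaks in the lower row of each panel. The dotted line is the middle of the window. HOXA holds 22 M2 and 14 THP-1 peaks, most of them right of the middle, and HOXC and HOXD hold 1 peak of each list.

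The end of the cluster with more covered length was not the same in all clusters, but in each cluster it was the same in both lists. For this, each window was split at its middle into 2 sides. In HOXA the side at the HOXA13 end, toward genes of posterior identity, held 83.6% of the M2 covered length and 95.6% of the THP-1 covered length. That side had 23.8 kb inside M2 peaks and 18.6 kb inside THP-1 peaks. The HOXA2 side had 4.66 kb inside M2 peaks and 0.861 kb inside THP-1 peaks. By summits, the HOXA13 side held 16 of 22 M2 peaks and 12 of 14 THP-1 peaks.

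The other clusters rest on few peaks. In HOXB all 4 M2 peaks and 2 of 3 THP-1 peaks were in the HOXB1 side, and the THP-1 list had 1 further peak near the HOXB13 end. HOXB13 lies apart from the rest of its cluster and is known from prostate and hindgut. In HOXC the single peak of each list was in the HOXC4 side. In HOXD the single peak of each list was in the HOXD13 side. HOXA and HOXD carried most covered length on the side of the highest-numbered gene, and HOXB and HOXC on that of the lowest-numbered gene. The sides split each window by length and not by genes. Since HOXB13 lies apart, most of the other HOXB genes may share the HOXB1 side. The HOXB result therefore does not tell low-numbered from higher-numbered HOXB genes.

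**Figure D2:**
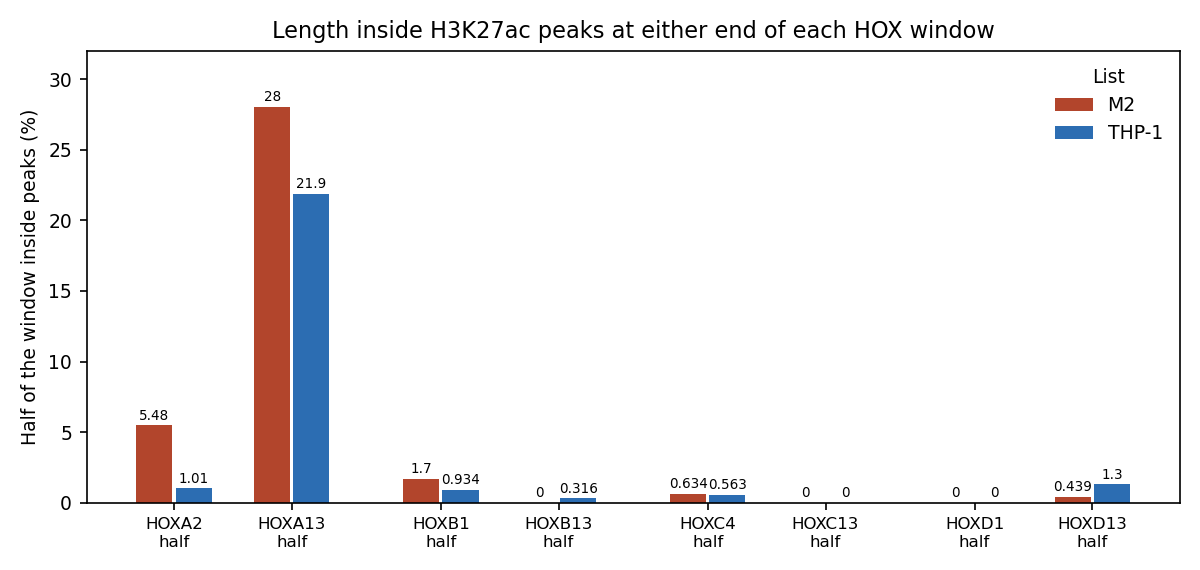
Share of each side of a window that lay inside H3K27ac peaks, in percent, with 1 bar for the M2 list and 1 for the THP-1 list and the value printed above each bar. The HOXA13 side stands out at 28.0% in M2 and 21.9% in THP-1, while every side of HOXB, HOXC and HOXD is below 2%.

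Within HOXA the peaks fell into blocks separated by more than 12.5 kb. The main block ran from 27200770 to 27241556 in M2 (40.8 kb, 16 peaks) and from 27201614 to 27242378 in THP-1 (40.8 kb, 12 peaks). M2 peaks filled 58.4% of the M2 block and THP-1 peaks 45.6% of the THP-1 block. The block boundaries of the lists differed by less than 1 kb at either side. A smaller block nearer the HOXA2 end ran from 27169532 to 27183238 in M2 (4 peaks, 3.14 kb covered) and from 27169682 to 27182396 in THP-1 (2 peaks, 0.861 kb covered). A block of 2 peaks still nearer the HOXA2 end, 27134879 to 27136694, was in the M2 list only, 32987 bp from the nearest THP-1 peak.

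The blocks were bounded by long stretches with no peak of either list. In HOXA the longest were the 34.9 kb at the HOXA2 end of the window and 32.8 kb between the M2-only block and the next one. The last 27.6 kb beyond the main block, on the side where EVX1, a homeobox gene next to HOXA13, follows in RefSeq order, were also without peaks. HOXB had a free stretch of 112.6 kb, 49.0% of its window. HOXC had one of 91.8 kb toward the HOXC13 end, and HOXD one of 107.6 kb toward the HOXD1 end.

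Peaks were sparse outside the windows as well. The 170 kb flank beyond the HOXA2 end was covered over 0.369% of its length in M2 and 0.309% in THP-1, and the flank beyond the HOXA13 end over 1.20% and 0.649%. Around HOXD the nearest THP-1 peaks lay 882.9 kb away beyond the HOXD13 end and 959.6 kb away beyond the HOXD1 end. The M2 list had 2 peaks in the 140 kb beyond the HOXD13 end and 0 in the 140 kb beyond the HOXD1 end. Around HOXC the nearest peaks were 198.8 kb (M2) and 250.3 kb (THP-1) away beyond HOXC13. The exception was the flank beyond HOXB13, with 11 M2 peaks over 4.70% of its length and 7 THP-1 peaks over 2.77%.

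The fold enrichment of a peak is the authors' deposited ratio of fragments at the summit to the local background. In HOXA it ranged from 2.31 to 10.0 in M2 (median 4.67) and from 2.22 to 7.13 in THP-1 (median 3.27). The medians over the whole lists were 5.42 and 3.67. The M2 peak of highest fold was also the widest, 27205254 to 27211503 (6250 bp, 10.0-fold, -log10 q 79.2). The widest THP-1 peak, 27205590 to 27209605 (4016 bp), lay inside it and reached 3.01-fold with a -log10 q of 19.2. Its summit was at 27208384, away from that of the M2 peak at 27205749. The THP-1 peak of highest fold lay at the far side of the block, 27241254 to 27242378 (7.13-fold, -log10 q 33.1). The overlapping M2 peak reached 3.85-fold with its summit outside the THP-1 peak, at 27240823. That summit lay inside another THP-1 peak, 27240173 to 27241024, which reached 3.24-fold with its summit at 27240780. The second-highest M2 fold, 9.28, was at 27231473 to 27233801, so high M2 folds were found on both sides of the block's centre.

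The number of fragments over each summit was recovered from the fold and the p-value of the peak. Over the widest peaks the summits held 150 fragments in M2 and 106 in THP-1, and these were the highest of the HOX summits solved in each list, 27 of 28 in M2 and 19 of 19 in THP-1. After the M2 pile-up was scaled as its fold requires, the 150 fragments stood as 126 over a local background of 11.7 on the same scale. In THP-1, which is not scaled, the background was 34.6 fragments. These summits lie at different positions, so the fragments and backgrounds are not those of a shared site. At the THP-1 peak of highest fold the background was 8.54 fragments under 67 at the summit. Fragment numbers here are solved values and not read counts.

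**Figure D3:**
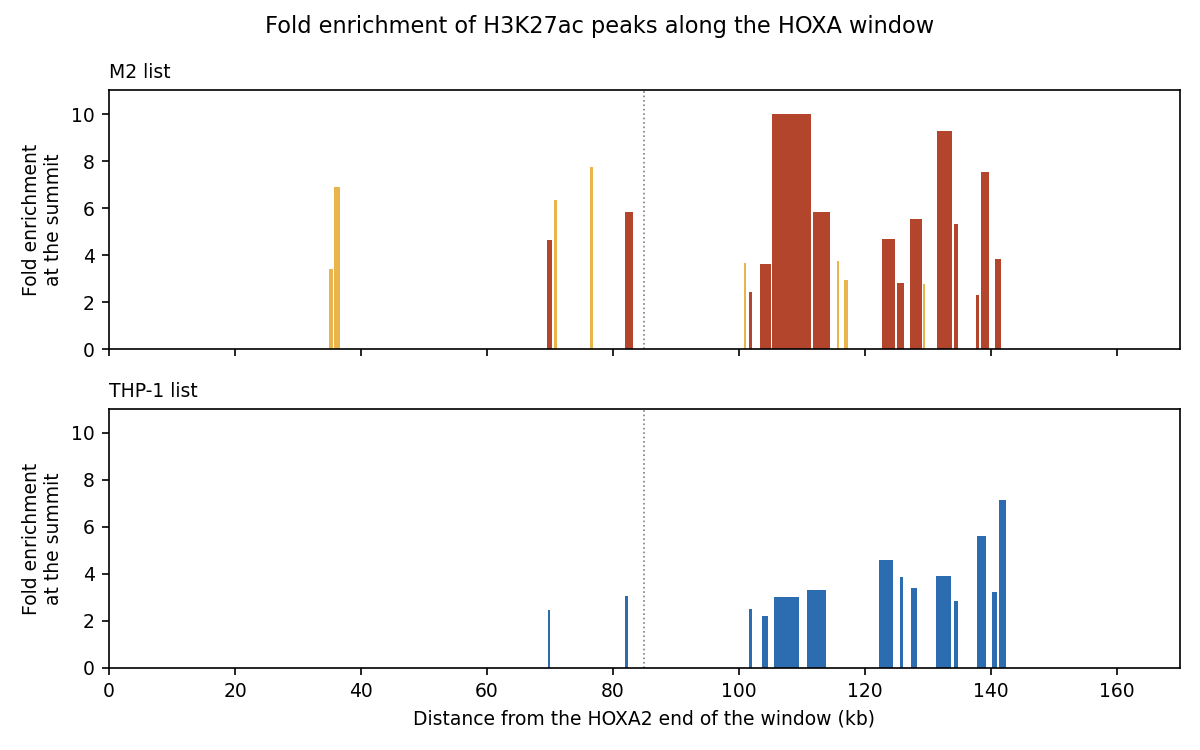
Fold enrichment at the summit (height, linear axis) and extent (width, in kb from the HOXA2 end of the window) of each HOXA peak, M2 above and THP-1 below. Yellow bars are peaks that overlap no peak of the other list, of which there are 8 in M2 and 0 in THP-1. The dotted line is the middle of the window. The tallest M2 bar (10.0-fold) stands left of the block's centre and the tallest THP-1 bar (7.13-fold) at its right edge. A second M2 bar of 9.28-fold stands right of the centre.

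Each of the 14 THP-1 peaks of HOXA had at least 1 bp in common with an M2 peak (100%, exact 95% interval 76.8 to 100). Over the whole THP-1 list 75.3% of peaks did. M2 peaks filled 57.5% of the main THP-1 block of HOXA, which held 12 of these 14 peaks, against 2.02% of the mean 170 kb tile. The part of this density in the sharing was not tested. Of the M2 peaks in HOXA 14 of 22 overlapped a THP-1 peak (63.6%, interval 40.7 to 82.8), against 37.0% of the whole M2 list. Over the 4 windows the numbers were 18 of 19 THP-1 peaks (94.7%, interval 74.0 to 99.9) and 18 of 28 M2 peaks (64.3%, interval 44.1 to 81.4). These intervals cover counting error only, since neighbouring peaks of a library are not independent. The THP-1 share depended on the length of the M2 list. With the M2 list held to the length of the THP-1 list, keeping the highest -log10 q, 10 of 19 THP-1 peaks in the windows were shared (52.6%, interval 28.9 to 75.6), beside 59.6% over the whole list. With peaks of both lists kept at a -log10 q of at least 10, it was 6 of 9 (66.7%, interval 29.9 to 92.5), beside 73.7%. So the THP-1 share was above that of the whole list as deposited and below it in both of these settings, and the intervals include the whole-list share in all 3. With a reciprocal overlap of 50% the THP-1 share was 36.4 percentage points above the whole list (interval 11.5 to 55.4). With peaks within 1000 bp counted as shared it was 14.97 points above (interval -5.80 to 20.1). The M2 share was above that of the whole list as deposited and in each of these settings, by 20.3 to 35.4 points. Since neighbouring peaks are not independent, the intervals cannot decide whether the windows differ from the whole list.

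In HOXA 17.1 kb lay inside peaks of both lists, which is 60.0% of the M2 and 87.8% of the THP-1 covered length. M2 peaks covered 1.46 times as much of HOXA as THP-1 peaks did. The same ratio over all chromosomes was 2.19. With the M2 list held to the length of the THP-1 list, the HOXA ratio was 1.15.

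In HOXA 8 M2 peaks overlapped no THP-1 peak, and over the whole M2 list 63.0% of peaks had none. On the HOXA2 side 4 of 6 M2 peaks were unshared, and on the HOXA13 side 4 of 16. This difference was not tested. The 3 of highest fold were 27176371 to 27176826 (7.76-fold, 42 fragments), 27135771 to 27136694 (6.90-fold, 90 fragments) and 27170632 to 27171135 (6.34-fold, 44 fragments). All 3 were in the HOXA2 side. Their nearest THP-1 peaks were 5100, 32987 and 559 bp away. The peak at 27135771 had more fragments at its summit than 7 of the 9 M2 peaks of HOXA that were paired with a single THP-1 peak. A THP-1 value at the site cannot be recovered where that list holds no peak.

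In HOXB the M2 peaks were 46655054 to 46655744 (3.30-fold, 38 fragments), 46655961 to 46656342 (3.90-fold, 22 fragments), 46663086 to 46663479 (5.16-fold, 20 fragments) and 46687912 to 46688397 (4.75-fold, 27 fragments). The THP-1 peaks were 46655945 to 46656396 (3.15-fold, 42 fragments), 46687749 to 46688370 (2.95-fold, 50 fragments) and 46801032 to 46801394 (2.00-fold, 23 fragments). The first 2 of these overlapped an M2 peak, and their summits held more fragments than those of their M2 counterparts. The last, the peak near the HOXB13 end, was 106968 bp from any M2 peak. Its -log10 q of 1.32 was just above the lowest in the list, 1.30. Of the whole THP-1 list 24.7% of peaks had no M2 overlap.

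In HOXC the lists met at a single place. The M2 peak, 54411850 to 54412293, was 3.64-fold with 55 fragments at its summit. The THP-1 peak, 54411970 to 54412363, was 2.20-fold with 43 fragments, and the summits were 57 bp apart. No other H3K27ac peak was called in the 140 kb window, which holds HOXC genes of skin, hair and limb patterning.

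In HOXD the overlap was slight. The M2 peak, 176962094 to 176962400, was 4.64-fold with 15 fragments. The THP-1 peak, 176961293 to 176962203, was 1.88-fold with 29 fragments and a -log10 q of 1.40. They had 0.110 kb in common, 35.8% of the M2 and 12.1% of the THP-1 peak. The HOXD genes at this end, HOXD11 to HOXD13 among them, pattern limbs and genitalia.

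Over the whole lists 60.4% of M2 and 42.1% of THP-1 peaks had a -log10 q of at least 10. Of the peaks in HOXB, HOXC and HOXD, 1 of 6 in M2 and 0 of 5 in THP-1 passed it. The 1 was the HOXC peak. In HOXA 12 of 22 M2 and 9 of 14 THP-1 peaks passed that level.

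Pairs of 1 M2 and 1 THP-1 peak, in which neither touched another peak of the other list, allow a comparison of signal at the same site. There were 13 in the windows: 9 in HOXA, 2 in HOXB, 1 in HOXC and 1 in HOXD. The fold was higher in M2 in 11 of the 13, and over all 15927 such pairs it was in 83.6%. The exceptions were both in the HOXA13 side, which held most of the HOXA pairs. They were at 27201594 to 27202053 (2.44-fold in M2, 2.52-fold in THP-1) and at 27225103 to 27226137 (2.83-fold in M2, 3.84-fold in THP-1). In 8 of 13 pairs the M2 peak was wider, against 69.1% of all pairs.

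The order by fragments at the summit depended on the scaling. Not scaled, the M2 summit had more fragments in 7 of the 13 pairs, 6 of them in HOXA, against 63.8% of all 15838 pairs with solved values. With the M2 pile-up scaled by the solved factor it was higher in 4 of 13, against 51.9%. With each pile-up divided by the lowest background of its list (1.94 in M2, on its scale, and 1.77 in THP-1), it was higher in 1 of 13, against 45.2%. The sequencing depth of the libraries is unknown, so none of these scalings is given preference. On the last scale the 1 was the pair of 27169532 to 27170334, with 14.3 in M2 and 13.6 in THP-1, which differ by less than 1. The median ratio of M2 to THP-1 on it was 0.863 over the 9 HOXA pairs (range 0.550 to 1.05) and 0.937 over all pairs (interquartile range 0.646 to 1.37). The HOXB pairs had ratios of 0.402 and 0.414, HOXD 0.397 and HOXC 0.981.

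The local background also differed between the lists. On the same scale it was higher in THP-1 in all 13 pairs, as in 83.4% of all pairs. In HOXA the THP-1 background was 1.13 to 2.93 times that of M2, with a median of 1.92, beside 2.13 over all pairs. In HOXB it was 3.47 and 4.48 times, in HOXC 1.74 times and in HOXD 8.45 times that of M2. The M2 background of the HOXD pair was the lowest of the M2 list (1.94, on its scale), at a summit of 15 fragments. Fold is signal over this background, so the fold compares libraries with unlike backgrounds at these sites. The part of the background in these differences was not tested, and the input libraries were not analysed here.

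**Figure D4:**
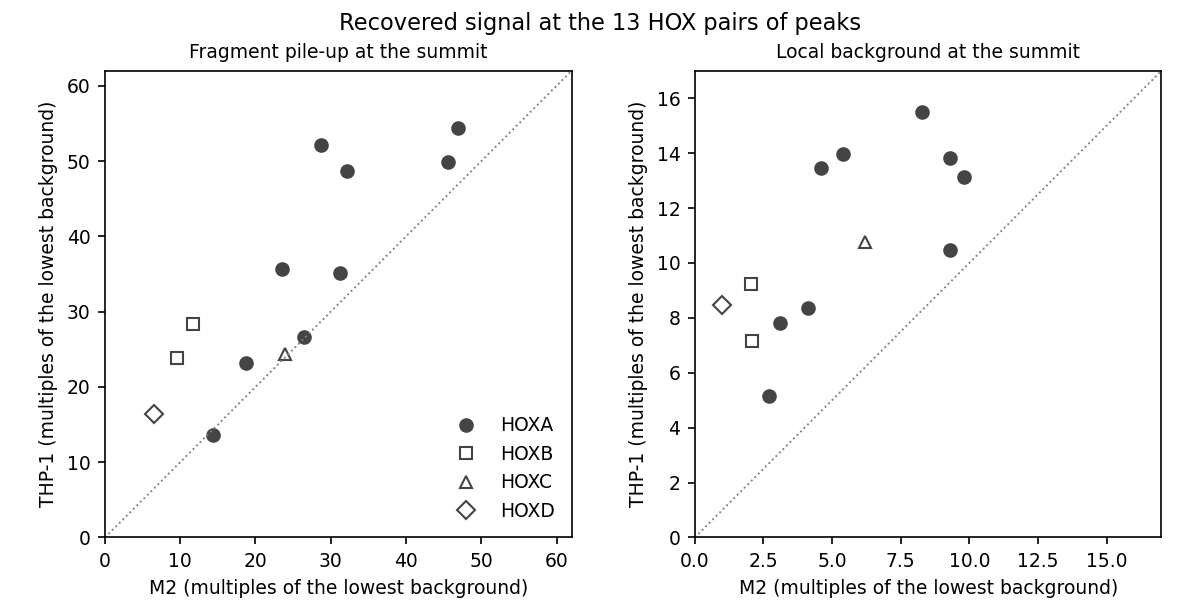
Recovered fragment pile-up at the summit (left) and local background (right) at the 13 one-to-one pairs of HOX peaks, M2 on the horizontal and THP-1 on the vertical axis, both in multiples of the lowest background of the list and with equal values on the dotted line. In the left panel 12 of the 13 pairs lie above the line, and in the right panel all 13 do.

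Summits of paired peaks were further apart in HOXA than in the lists as a whole. The median distance was 438 bp over the 9 HOXA pairs (85 to 1074 bp), and 3 of 9 had summits within 200 bp. Over all pairs the median was 78 bp, and 11806 of 15927 were within 200 bp. At the HOXB, HOXC and HOXD pairs the distances were between 28 and 80 bp. M2 peaks of HOXA had a median width of 863.5 bp, against 743 bp over the whole list, and THP-1 peaks 1011.5 bp against 661 bp. The part of width in the distances was not tested.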

How the data were processed

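Chromatin from THP-1 cells and M2 macrophages was immunoprecipitated and sequenced as paired ends, per the labels' protocols. The submitters' processing notes name Bowtie2, MACS2 version 2.1.0 and hg19 but give no settings. The use of input as control is not stated in the sources used here. The lists have no header and were read in narrowPeak order. Fold enrichment is a ratio deposited by the authors. The -log10 p and -log10 q are the authors' values, and the deposited score repeats the -log10 q times 10 without decimals. The Y chromosome was left out. In the lists so used the lowest peak number was 2468 in M2 and 1253 in THP-1. Entries with lower numbers are not among the peaks compared here, and what they held was not checked.

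The windows, members and gene lists were chosen with earlier results of these data known. Peaks were counted where they overlapped a window or each other by at least 1 bp. The ends are the sides of a window split at its middle. Shares carry exact (Clopper-Pearson) 95% intervals. Fragments over a summit were solved from fold = (pile-up + 1)/(background + 1) and a Poisson p-value, with the M2 pile-up scaled by 0.8417 and the THP-1 pile-up not scaled. There was a single solution for 99.3% of peaks in M2 and for 99.99% in THP-1, within 0.003 of the deposited -log10 p. The median summit held 39 fragments in M2, before scaling, and 40 in THP-1. The peaks named are all those of a window with at most 5 of a list, and otherwise the highest-fold, the widest and up to 3 unshared peaks of highest fold. Others that are given positions were chosen after their values were seen. Planned assignment of peaks to genes and counts at HOX cofactors needed an hg19 annotation and were not made. Steps were tested on simulated peaks and run with Python 3.11.15, NumPy 2.4.6, pandas 2.3.3 and SciPy 1.17.1.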

Additional observations from a re-analysis of the deposited data

How the results depend on the processing

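Of 78 recomputed values 44 stayed the same, 30 moved and 4 changed direction. The same means within 1.5 times for a count, within the interval of the deposited value for a share, and equal to 3 digits for a ratio or the side of a window. Differences between the lists and from the whole list, and the scalings of the pairs, were added after seeing the data. With peaks kept at a -log10 q of at least 10, HOXA held 12 M2 and 9 THP-1 peaks (3 more in M2, beside 8 as deposited), and HOXB to HOXD together 1 and 0. The shared THP-1 share was then 66.7% (-7.07 percentage points from the whole list, beside 19.4 as deposited), the HOXA covered-length ratio of M2 to THP-1 was 1.34, and the HOXA13 side held 85.4% (M2) and 100% (THP-1) of the HOXA covered length. With the M2 list cut to the length of the THP-1 list, HOXA held 12 M2 peaks and HOXB to HOXD 1 (M2 minus THP-1 of -2 and -4, beside 8 and 1), the shared THP-1 share was 52.6% (-7.01 points from the whole list), the ratio was 1.15 in HOXA and 0.162 in HOXB to HOXD (0.986 as deposited), and the HOXA13 side held 85.4% in M2. Joining peaks within 1000 bp left 11 M2 and 10 THP-1 peaks in HOXA (a difference of 1) and 5 of each in HOXB to HOXD (a difference of 0). A reciprocal overlap of 50% gave a shared THP-1 share of 68.4% (36.4 points above the whole list). M2 summits were higher in 7 of 13 pairs by fragments not scaled and in 4 with M2 scaled, beside 1. Windows widened by 50 kb gave ratios of 1.47 and 0.942, and windows trimmed by 10% gave those reported. With only the outer parts of the windows (33.3% of the length at either end) the HOXA13 end held 89.8% (M2) and 100% (THP-1) and the HOXB13 end 44.5% of the THP-1 length. By summits these were 72.7%, 85.7% and 33.3%. Fewer peaks in the first 2 settings follow from their construction, and the cause of the other shifts was not tested.

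No ratio could be given for HOXB to HOXD at the stricter threshold, where 0 THP-1 peaks were left, and no end where no peak was left or where the HOXC peak lay in the middle part. No paired analysis was possible because each group has 1 library. The HOXD summits held 15 and 29 fragments. An absence of peaks in HOXB, HOXC and HOXD is an absence of called peaks and not of acetylation.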

Other observations

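The weakest HOX peaks of the THP-1 list had their summits at the edge of the peak. The peak near the HOXB13 end, 46801032 to 46801394, has its summit at 46801032, its first base. The HOXD peak, 176961293 to 176962203, has its summit at 176962199, a few bases from its end and inside the M2 peak. Both were within 0.1 of the lowest -log10 q of the list, at 1.32 and 1.40.

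In the main HOXA block M2 peaks covered more than THP-1 peaks in each 10 kb bin but the last. In the 10 kb from 100 to 110 kb of the window, coverage was 7.25 kb by M2 and 5.36 kb by THP-1 peaks. In the next 10 kb the values were 5.37 and 2.99 kb. From 140 to 150 kb they were 0.945 and 1.98 kb, the only 10 kb bin of HOXA with more THP-1 than M2 coverage. With 1 library of each kind this was not tested.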
